A study of Homo sapiens with 12 samples.

Results

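The comparison described here is that of N87 cells kept for 14 days in lapatinib with N87 cells kept for the same time in vehicle (DMSO), within a pooled CRISPR knockout screen. It takes the 4 N87 libraries labelled for these conditions out of the 12 libraries of the series, 2 with lapatinib at 0.5 µM and 2 with vehicle. N87 is a gastric cancer line in which the HER2 gene (ERBB2) is amplified. Both groups had been transduced with the GeCKO v2 knockout library at a multiplicity of infection of about 0.3 and selected for 7 days with puromycin, with separate infections given as the 2 replicates of the line. A baseline pool was collected when selection ended, and the second line of the series is OE19, treated at 1 µM. All sgRNAs were kept, grouped by the gene they target, and gains and losses were both read. The count table has 123411 sgRNA entries under 20915 gene names, most of them with 6 sgRNAs per gene, and 2000 control entries that target no gene. It holds guide counts from genomic DNA and no expression, so the identity of the cells could not be checked from it.

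In a screen of this kind each cell carries Cas9 and, in most cells, a single guide, and the guide sequence serves as a barcode that is counted by sequencing. Lapatinib blocks the kinase activity of EGFR and HER2, which signal through Ras and ERK and through PI3K and AKT. A guide whose cells survive or divide better in the drug takes a larger share of the reads than in vehicle, and a guide whose cells are lost takes a smaller one. Guides against the same gene are independent attempts at the same knockout, so a gene is read from how far its guides move together. Guides that target no gene show how far a guide moves without a cut or a knockout.

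The lapatinib libraries held 26675049 and 24570332 reads and the vehicle libraries 26981640 and 25142593, so the groups were sequenced to a similar depth. The median count per sgRNA was 120 and 126 with lapatinib and 188 and 174 with vehicle. Normalized counts below are counts divided by a scaling factor per library (the median of its ratios to the average library). sgRNAs with at least 40 counts over the 4 libraries were tested with edgeR, which left 119903 gene-targeting sgRNAs, 1999 control entries and 20885 genes. For a gene, the one-sided sgRNA p-values were combined by rank aggregation, and Benjamini-Hochberg adjustment ran over all genes, with a gene called below 0.05. The value of a gene is the median log2 fold change of lapatinib over vehicle across its sgRNAs, with the SD over sgRNAs. With 2 libraries per condition an exact permutation test cannot give a p below 0.333, so single values rest on the fit across all sgRNAs.

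Guides that target no gene spread widely with lapatinib, and the same guides were high or low in both replicates. Over all sgRNAs lapatinib replicate 1 was spread more widely than replicate 2, with interquartile ranges of the log2 normalized count of 3.07 and 2.40 and 2044 and 598 sgRNAs without a count, against 1.42 and 1.48 and 47 and 91 in the vehicle libraries. The log2 fold change of the control entries had an SD of 1.04 and an interquartile range of 1.35, against 1.40 and 1.99 for gene-targeting sgRNAs. Across the control entries, the log2 ratio of lapatinib to vehicle in replicate pair 1 correlated with that in pair 2 with r = 0.892 over 1999 entries. This is a description, since entries of a library are not replicates of a condition. Why control guides moved alike in both pairs was not tested. The sources name 2 separate infections per line but do not say which libraries came from which, so p-values here measure only the spread between these libraries. Agreement between the replicate pairs is likewise not read as agreement between separate infections. The SD of the control entries was only 0.17 between vehicle and baseline in the same line, and 0.63 between lapatinib and vehicle in OE19. Of the control entries 52.3% passed the sgRNA test in either direction, with 731 higher and 314 lower, and in 81.8% the values of the 2 conditions did not overlap. Among gene-targeting sgRNAs 31.1% passed higher and 30.1% lower with lapatinib, and 89.5% had the same sign in both replicate pairs. A call on a single sgRNA is therefore not read as a result about its gene. Each control guide is listed once under each sub-library (A and B), and its log2 fold changes in the 2 entries correlated with r = 0.970 over 999 guides. How reads were assigned between such entries is not given in the sources used here. For a guide-level scale free of the sgRNA test, the central 95% of the control entries ran from -1.92 to 2.11 (log2 fold change) and is called the control range below. Of gene-targeting sgRNAs 4.67% lay above it and 11.2% below it.

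How far an sgRNA moved also went with how abundant it had been at the start. The median log2 fold change was -1.29 for gene-targeting sgRNAs with a normalized count under 50 at baseline, and 33.7% of these 11393 sgRNAs lay below the control range. Those with 200 to 400 counts at baseline had a median of 0.19, with 2.63% of 33173 below the range. The interquartile range narrowed over the same steps, with 2.69 under 50 counts and 1.07 at 400 counts and over. Control guides had a median of -0.37 under 50 counts, 0.33 at 100 to 200, 0.31 at 200 to 400 and 0.59 at 400 and over, the last over 32 entries. Baseline libraries take no part in the fold change. Lists of genes are therefore also given below for sgRNAs with at least 100 normalized counts at baseline, of which 3.56% lay above and 5.76% below the control range.

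**Figure D1:**
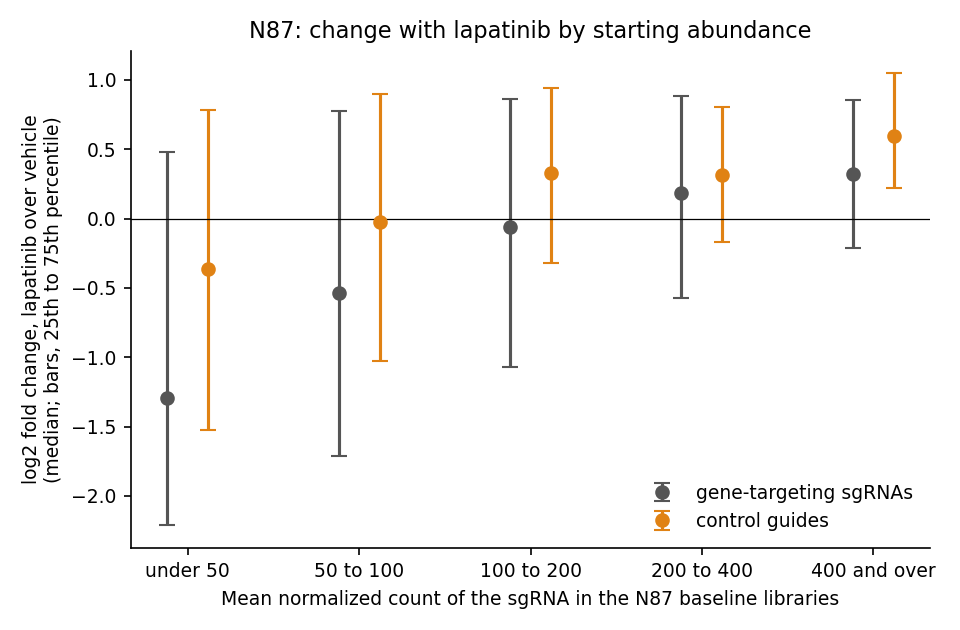
Median log2 fold change of lapatinib over vehicle in N87 (points) with the 25th to 75th percentile (bars), for gene-targeting sgRNAs (grey) and control guides (orange), by mean normalized count at baseline. The median is lowest in the scarcest guides of both classes and highest in the most abundant, with -1.29 under 50 counts and 0.32 at 400 counts and over for gene-targeting sgRNAs.

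The sgRNAs of a gene shared little of their movement. The intraclass correlation, the part of the variance of sgRNA log2 fold changes that lies between genes, was 0.0167 over 17711 genes with 6 tested sgRNAs. The same measure was 0.0630 for lapatinib against vehicle in OE19 and 0.248 for vehicle against baseline in N87. These comparisons share no common test, and the baseline comparison shares its vehicle libraries with the one described here. Olfactory receptor genes, which are silent in most tissues, had a median of -0.01 over 2242 sgRNAs with an interquartile range of 1.81, and 60.3% of them passed the sgRNA test. Of these sgRNAs 3.21% lay above the control range and 8.97% below it, against 4.67% and 11.2% of all gene-targeting sgRNAs.

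No gene was enriched with lapatinib and 3 were depleted, SYS1, RAI14 and GPX4, which is 0.0144% of the genes tested. Enriched genes were 0% of them. At an unadjusted p under 0.05, 5.09% of genes were on the enriched side (1063) and 5.18% on the depleted side (1081). With DESeq2 in place of edgeR, TADA1 and KCTD5 were enriched. In a fit with a library left out, its group keeps a single one, whose spread is taken from the other group. All 3 depleted genes depend on single libraries. Without lapatinib replicate 2 or without vehicle replicate 1 none of them passed, and without vehicle replicate 2 SYS1 alone did. Without lapatinib replicate 1, 5 genes were depleted, these 3 with EXTL3 and TNS3. Ranked by log2 fold change in place of p none of the 3 passed, and GPX4 did not pass with DESeq2 (adjusted p = 0.0691) or with the replicate number as a block (0.131). Their medians were below -1.5 under every setting run. The enriched side also changed with the library left out. Without lapatinib replicate 1 the medians were 3.16 for CSK, 2.63 for KCTD5 and 2.53 for TADA1. Without lapatinib replicate 2 they were 1.76, 2.32 and 2.82. The absence of enriched genes belongs to the main settings and did not hold under every setting.

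SYS1 (chromosome 20 of GRCh37, 43990577 to 44005438) encodes a Golgi membrane protein that recruits the small GTPase ARFRP1 to the trans-Golgi network. Over 6 sgRNAs the median log2 fold change of SYS1 was -2.37 ± 1.12 (SD), and rank aggregation of the edgeR p-values gave an adjusted p of 0.0216. The sgRNA with the largest loss in SYS1 had 17.3 and 36.0 normalized counts with lapatinib, against 264 and 164 with vehicle. The next had 21.0 and 51.6 with lapatinib, against 264 and 232 with vehicle. For 5 of the 6 sgRNAs every lapatinib value lay under every vehicle value, which held for 42.7% of all gene-targeting sgRNAs. The sixth had 27.2 and 26.4 with lapatinib, against 32.4 and 25.03 with vehicle, and its groups overlap. SYS1 sgRNAs had already fallen in vehicle relative to baseline, with a median of -0.65 and an adjusted gene p of 0.000369 by rank aggregation of edgeR p-values. In OE19 the median with lapatinib was -0.03.

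RAI14 (chromosome 5, 34656433 to 34832717) encodes ankycorbin, an ankyrin-repeat protein bound to actin. Its median was -2.0 ± 1.41 over 6 sgRNAs, again with an adjusted p of 0.0216. One sgRNA had 2.47 and 6.01 normalized counts with lapatinib, against 88.8 and 76.8 with vehicle, a log2 fold change of -4.29. Another had 294 and 271 with lapatinib, against 221 and 292 with vehicle, and its groups overlap. The other 4 lay between these, with log2 fold changes from -2.55 to -1.69. The RAI14 median between vehicle and baseline was 0.16, and in OE19 with lapatinib it was -0.32. Its call was also absent with the 200-count filter (adjusted p = 0.166), with control-guide scaling (0.148) and with total-count scaling (0.188), all from edgeR p-values.

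GPX4 (chromosome 19, 1103981 to 1106790) encodes the selenoprotein that reduces lipid peroxides and so prevents ferroptosis, a form of cell death driven by iron. It had the lowest median of the 3 called genes, -2.99 ± 0.63 over 5 tested sgRNAs, with an adjusted p of 0.0216. All 5 were lower in both lapatinib libraries than in both vehicle libraries, against 42.7% of all gene-targeting sgRNAs. Their normalized counts ran from 3.71 to 70.5 in lapatinib replicate 1 and from 6.01 to 114 in lapatinib replicate 2, against 61.0 to 362 and 41.7 to 259 in the vehicle libraries. The sixth sgRNA had too few counts to be tested. The median between vehicle and baseline was -0.48 with an adjusted p of 0.901, and in OE19 with lapatinib it was -0.07. The test of the difference between the lines gave an adjusted p of 0.743 for GPX4 and 0.925 for RAI14, so neither loss was shown to differ from OE19.

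**Figure D2:**
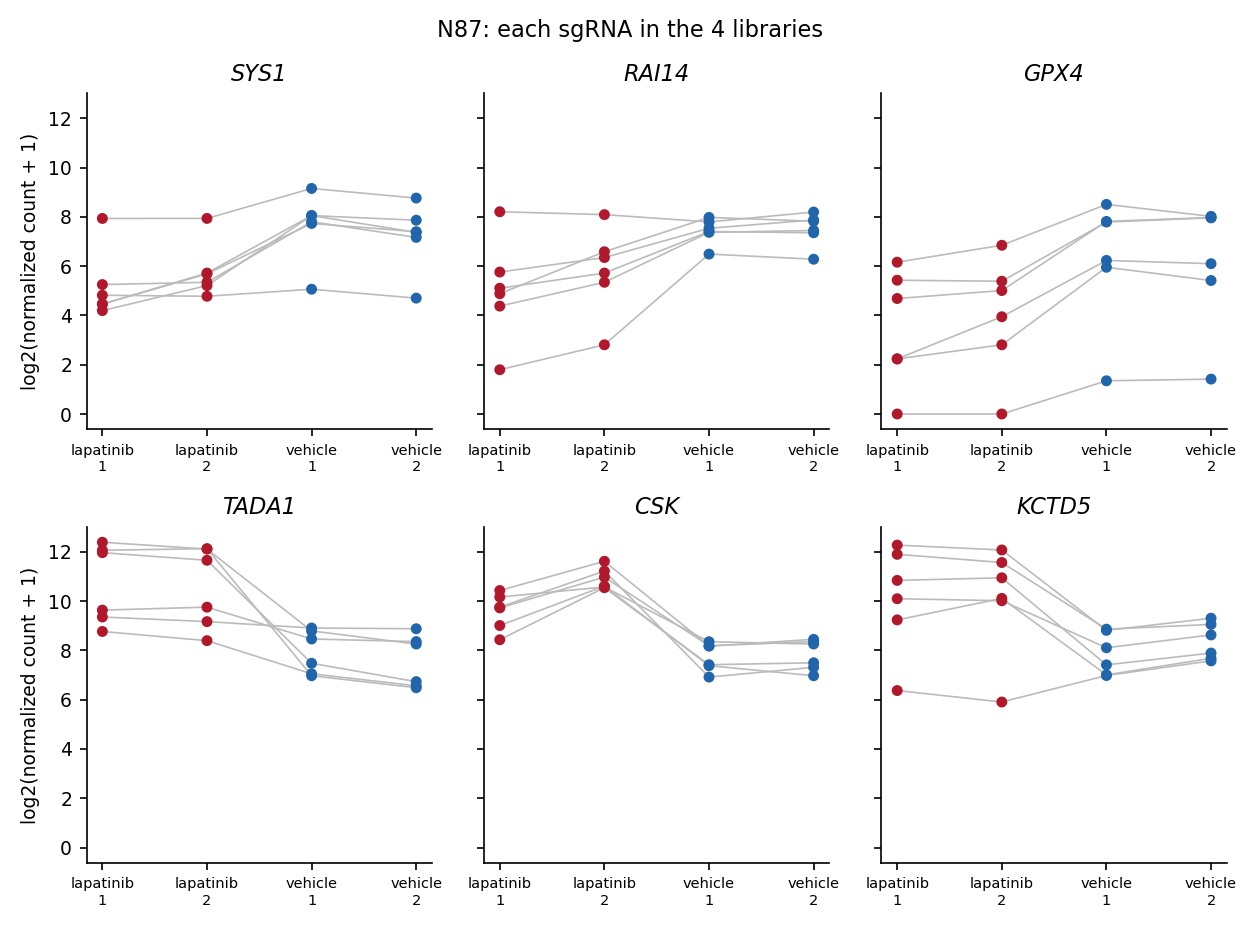
Each sgRNA of 6 genes in the 4 N87 libraries, as log2 of the normalized count plus 1, with lapatinib libraries in red and vehicle libraries in blue, and lines joining the values of the same sgRNA. In SYS1, RAI14 and GPX4 most sgRNAs sit lower with lapatinib, in TADA1, CSK and KCTD5 most sit higher, and CSK is higher in lapatinib replicate 2 than in replicate 1.

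Behind these 3, the depleted genes of lowest p did not pass. B3GALT6, which adds a galactose to the linker on which heparan sulfate is built, stood at -1.56 ± 0.86 (adjusted p = 0.125). MPP6, a membrane scaffold protein, had -1.74 ± 1.03 with 0.25. NUP62, of the nuclear pore, had -1.77 ± 2.23 with 0.366. TNS3, a tensin at focal adhesions, had the lowest median of the genes named here, -3.30 ± 1.86, with an adjusted p of 0.431. Of its sgRNAs 5 lay below the control range, and the largest loss was to 1.24 and 20.4 normalized counts with lapatinib, against 158 and 130 with vehicle. The remaining sgRNA of TNS3 went the other way, with 433 and 485 with lapatinib, against 175 and 212 with vehicle. TNFSF8 and TNPO1 had medians near 0 (-0.13 and -0.23), with 2 sgRNAs of TNFSF8 and 1 of TNPO1 below the control range.

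On the enriched side the lowest p belonged to CAPN9, a calpain of the digestive tract, with a median of 2.3 ± 2.07 (adjusted p = 0.238). The same adjusted p was reached by TAF4 of TFIID (2.02 ± 2.52), SMARCD1 of SWI/SNF (1.50 ± 2.92), EIF3K of translation initiation factor 3 (1.80 ± 1.90), RAB27B of vesicle secretion (1.12 ± 2.21), the cadherin CDH19 (2.25 ± 1.38), TADA1 of SAGA (2.69 ± 2.00), the ubiquitin ligase TRIM7 (1.30 ± 3.24) and PRR24 (2.04 ± 1.32). In several of them the sgRNAs disagreed. CAPN9 had 4 sgRNAs above the control range and 1 below it, and TRIM7 had 2 above and 1 below. PRR24 and KLF5 differed from these in that all 6 of their sgRNAs passed the sgRNA test higher, against 31.1% of all gene-targeting sgRNAs.

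KLF5 (chromosome 13, 73629114 to 73651679), a transcription factor of the gut epithelium, reached 2.41 ± 0.93 with lapatinib (adjusted p = 0.242). Its most abundant sgRNA had 1316 and 1079 normalized counts with lapatinib, against 164 and 81.8 with vehicle. Another had 386 and 243 with lapatinib, against 34.8 and 31.7 with vehicle. The weakest had 271 and 264 with lapatinib, against 174 and 93.4 with vehicle, and in all 6 both lapatinib values lay over both vehicle values, against 42.1% of all gene-targeting sgRNAs. Both replicate pairs gave a median near that of the fit, 2.44 and 2.47. KLF5 sgRNAs had a median of -0.48 between vehicle and baseline and 0.01 between lapatinib and vehicle in OE19. As each library was left out, the KLF5 median ran from 2.26 to 2.55, and KLF5 passed under no setting that kept both replicates of each condition.

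TADA1 (chromosome 1, 166825747 to 166845501) encodes a core subunit of the SAGA histone acetyltransferase complex. Of its 6 sgRNAs 5 were higher by the sgRNA test and 3 above the control range, against 31.1% and 4.67% of all. The sgRNA with the largest gain had 4272 and 4470 normalized counts with lapatinib, against 124 and 88.4 with vehicle. The second had 3993 and 3223 with lapatinib, against 177 and 105 with vehicle, and the third 5349 and 4417, against 441 and 305. The weakest sgRNA had 653 and 573 with lapatinib, against 479 and 469 with vehicle. Its groups did not overlap, as in 42.1% of all gene-targeting sgRNAs in this direction. Its log2 fold change of 0.32 was near the median of the control entries, 0.25. As each library was left out, the TADA1 median ran from 2.44 to 2.95.

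CSK (chromosome 15, 75074421 to 75095538), the kinase that restrains the Src family, had the tightest agreement between sgRNAs of the genes with a median above 0 in the plot of single sgRNAs, with a median of 2.56 ± 0.54. Its sgRNAs ran from 344 to 1376 normalized counts in lapatinib replicate 1 and from 1491 to 3134 in lapatinib replicate 2, against 120 to 325 and 124 to 348 in the vehicle libraries. Replicate pair 1 gave a median log2 ratio of 1.72 and pair 2 one of 3.11. All 6 sgRNAs of CSK passed the sgRNA test higher and 5 lay above the control range, against 31.1% and 4.67% of all gene-targeting sgRNAs. CSK had an adjusted p of 0.974 by rank aggregation of edgeR p-values. Its median was 3.16 without lapatinib replicate 1 and 1.76 without lapatinib replicate 2. Ranked by log2 fold change in place of p, CSK and TADA1 were both enriched (adjusted p = 0.0474). KCTD5 (chromosome 16, 2732524 to 2759031), which links substrates to the ubiquitin ligase built on CUL3, had 2.52 ± 1.65 with an adjusted p of 0.518. Without lapatinib replicate 1 the KCTD5 median was 2.63. Its highest sgRNA had 4937 and 4306 normalized counts with lapatinib, against 448 and 631 with vehicle, while 1 of the 6 fell, with 81.6 and 58.9 with lapatinib, against 125 and 189 with vehicle. DPH7, which acts in the synthesis of the diphthamide residue of elongation factor 2, had 6 of 6 sgRNAs higher by the sgRNA test. That held for 31.1% of all gene-targeting sgRNAs and 36.6% of control entries. The SD over the sgRNAs of DPH7 was 0.27 around a median of 1.50, and none of the 6 lay above the control range.

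Gene lists were described by the share of their sgRNAs outside the control range and by the median of their gene values, which was -0.09 over all genes. SAGA, which acetylates histone H3 and removes ubiquitin from histone H2B, had 25.2% of its 115 sgRNAs above the range and 10.4% below, against 4.67% and 11.2% of all gene-targeting sgRNAs. Of its 20 genes, 11 had an unadjusted enrichment p under 0.05 and 0 a depletion p under 0.05, against 5.09% and 5.18% of all genes. None passed after adjustment. The core and acetyltransferase subunits SUPT20H (1.90 ± 1.14), KAT2A (1.60 ± 1.59), TADA2B (1.57 ± 2.37), TAF5L (1.52 ± 1.64), TAF6L (1.42 ± 2.57) and TADA3 (1.19 ± 1.46) had medians above 1, as did the deubiquitinase USP22 (1.87 ± 1.18). USP22 had 1651 and 1349 normalized counts with lapatinib in its strongest sgRNA, against 164 and 197 with vehicle. TADA2B had 4953 and 4199 with lapatinib in one sgRNA, against 127 and 73.4 with vehicle, while 2 of its other sgRNAs had log2 fold changes of -1.03 and -0.30. Another scaling moves all genes alike, and with total counts the median of SAGA genes was 0.03, against -0.62 for all genes. The subunits TRRAP, TAF9, TAF10 and ENY2 had medians from -1.06 to -0.49, and SUPT3H had -1.31 ± 1.05. Among sgRNAs with at least 100 counts at baseline, 28.9% of the 83 in the list lay above the range and 3.61% below it. The general transcription complex TFIID, which is built from related subunits, had 5.71% of 70 sgRNAs above the range and 11.4% below, and TAF4 was the only one of its 12 genes with an enrichment p under 0.05. The Mediator complex had 5.38% of 186 above and 12.4% below, with MED1 at a median of 1.40 ± 2.12 and CCNC at -1.08 ± 1.30.

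**Figure D3:**
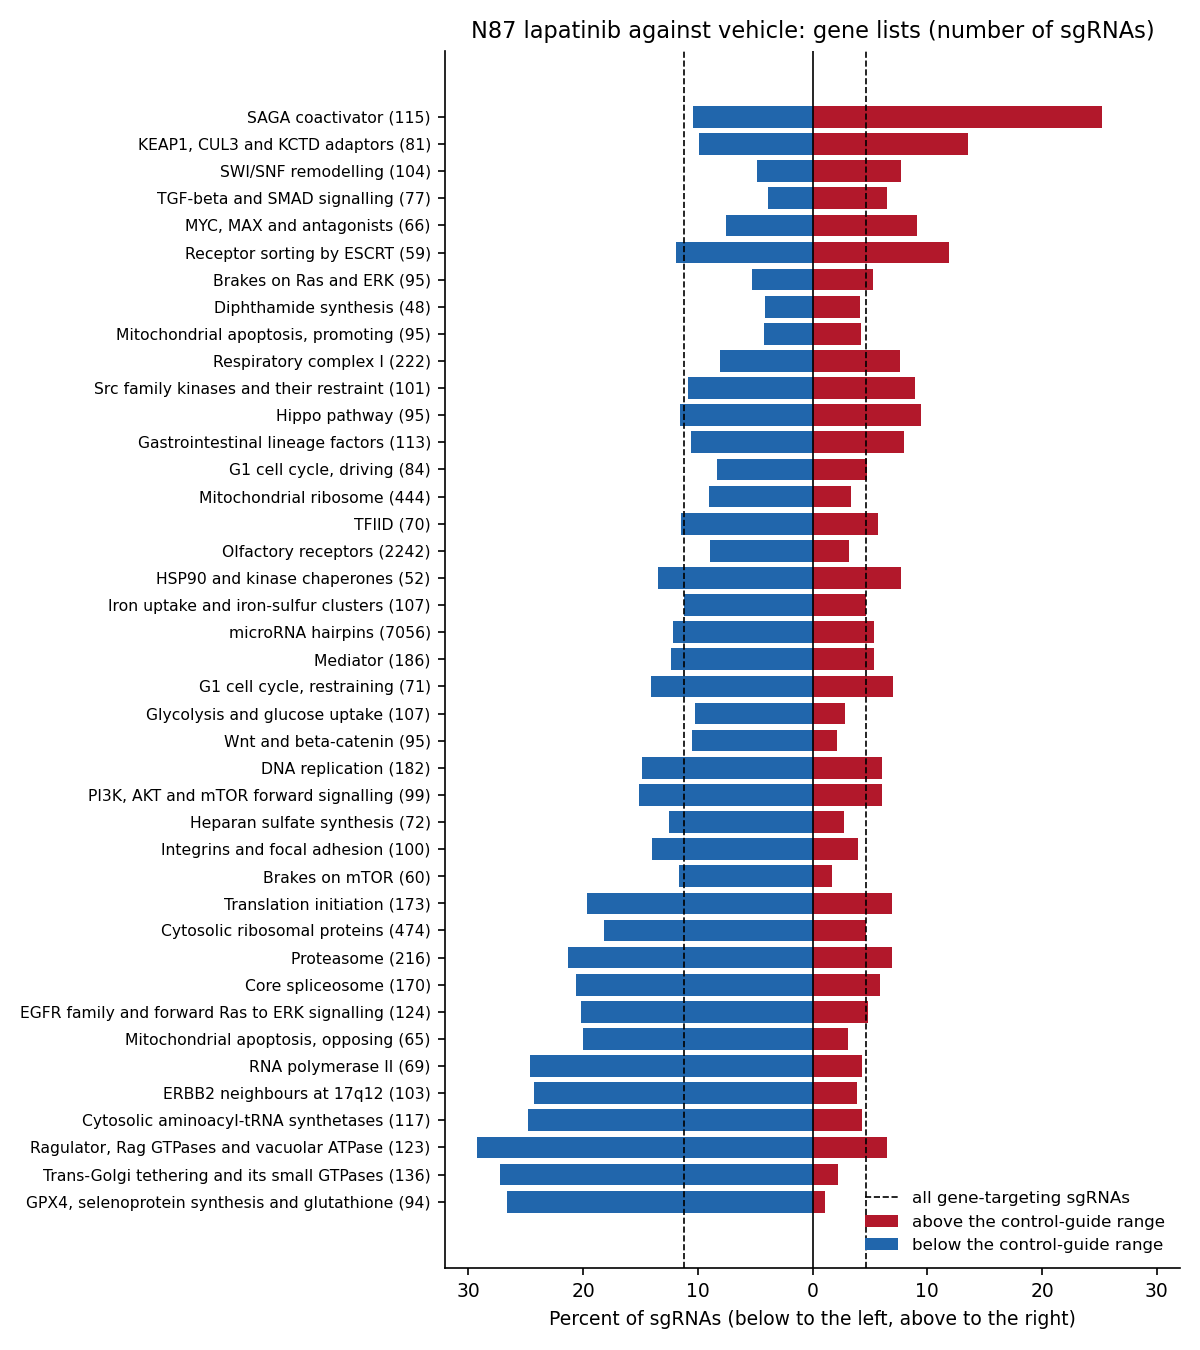
Share of the sgRNAs of each gene list shown that lay above (red, to the right) and below (blue, to the left) the control range in N87 with lapatinib against vehicle, with the number of sgRNAs in parentheses and dashed lines at the shares over all gene-targeting sgRNAs, 4.67% above and 11.2% below. SAGA has 25.2% above, and the lists around GPX4, the trans-Golgi and the vacuolar ATPase have over 26% below.

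Trans-Golgi tethering was the list around SYS1. Among its 23 genes are the GARP complex (VPS51 to VPS54) and the COG complex, which capture vesicles arriving from endosomes and within the Golgi. It had 27.2% of 136 sgRNAs below the control range and 2.21% above, and 20 of its 23 genes had a median below 0 in both replicate pairs, against 44.2% of all genes. Depletion p-values were under 0.05 for 7 of the 23, SYS1, ARFRP1, RAB6A, VPS53, COG3, COG4 and COG8, against 5.18% of all genes. SYS1 itself is counted in these shares, with 4 of its 6 sgRNAs below the range. The list was chosen with earlier results of these data known. ARFRP1, the GTPase that SYS1 recruits, had a median of -1.14 ± 1.89. COG8 had -1.98 ± 1.09, COG3 -1.84 ± 0.83 and COG4 -1.81 ± 3.00. RAB6A, which marks Golgi vesicles, had -1.56 ± 1.04, and its sgRNA with the largest loss had 59.4 and 69.7 normalized counts with lapatinib, against 256 and 303 with vehicle. NAA30 and NAA38 of the NatC acetyltransferase had -1.75 ± 1.57 and -1.49 ± 0.96, while NAA35 of the same enzyme had 0.79 ± 0.88. Apart from SYS1 none of them passed after adjustment. With at least 100 counts at baseline, 21.2% of the 99 sgRNAs lay below the range and 1.01% above it.

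The list around GPX4 holds the enzymes that make selenocysteine, the cystine transporter and the glutathione pathway. It had 26.6% of 94 sgRNAs below the control range and 1.06% above, against 11.2% and 4.67% of all, and 11 of 16 genes had a median below 0 in both pairs, against 44.2%. Depletion p-values were under 0.05 for 4 of the 16, GPX4, SEPSECS, SEPHS2 and SLC3A2, against 5.18% of all genes. GPX4 itself is counted in these shares, with 4 of its 5 tested sgRNAs below the range. This list too was chosen with earlier results known. SLC3A2, the heavy chain of the cystine transporter, had -1.72 ± 0.59 with all 6 sgRNAs passing lower, against 30.1% of all, and 2 below the control range, for example 16.1 and 20.4 normalized counts with lapatinib, against 129 and 108 with vehicle. SLC7A11, its partner, had -1.06 ± 1.35. SEPSECS, which makes selenocysteine on its tRNA, had -1.82 ± 1.25, with 5 of its 6 sgRNAs at a log2 fold change below 0 and one at 0.92. EEFSEC, the elongation factor for selenocysteine, had -2.01 ± 1.27, while PSTK and SECISBP2 of the same route had -0.13 ± 1.82 and -0.29 ± 1.17. ACSL4 and LPCAT3, which supply the polyunsaturated lipids that ferroptosis needs, had 0.10 ± 1.08 and 0.83 ± 1.10, and AIFM2, a second suppressor of ferroptosis, had 0.99 ± 1.57. With at least 100 counts at baseline, 16.7% of 66 sgRNAs lay below the range and 0 above it.

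**Figure D4:**
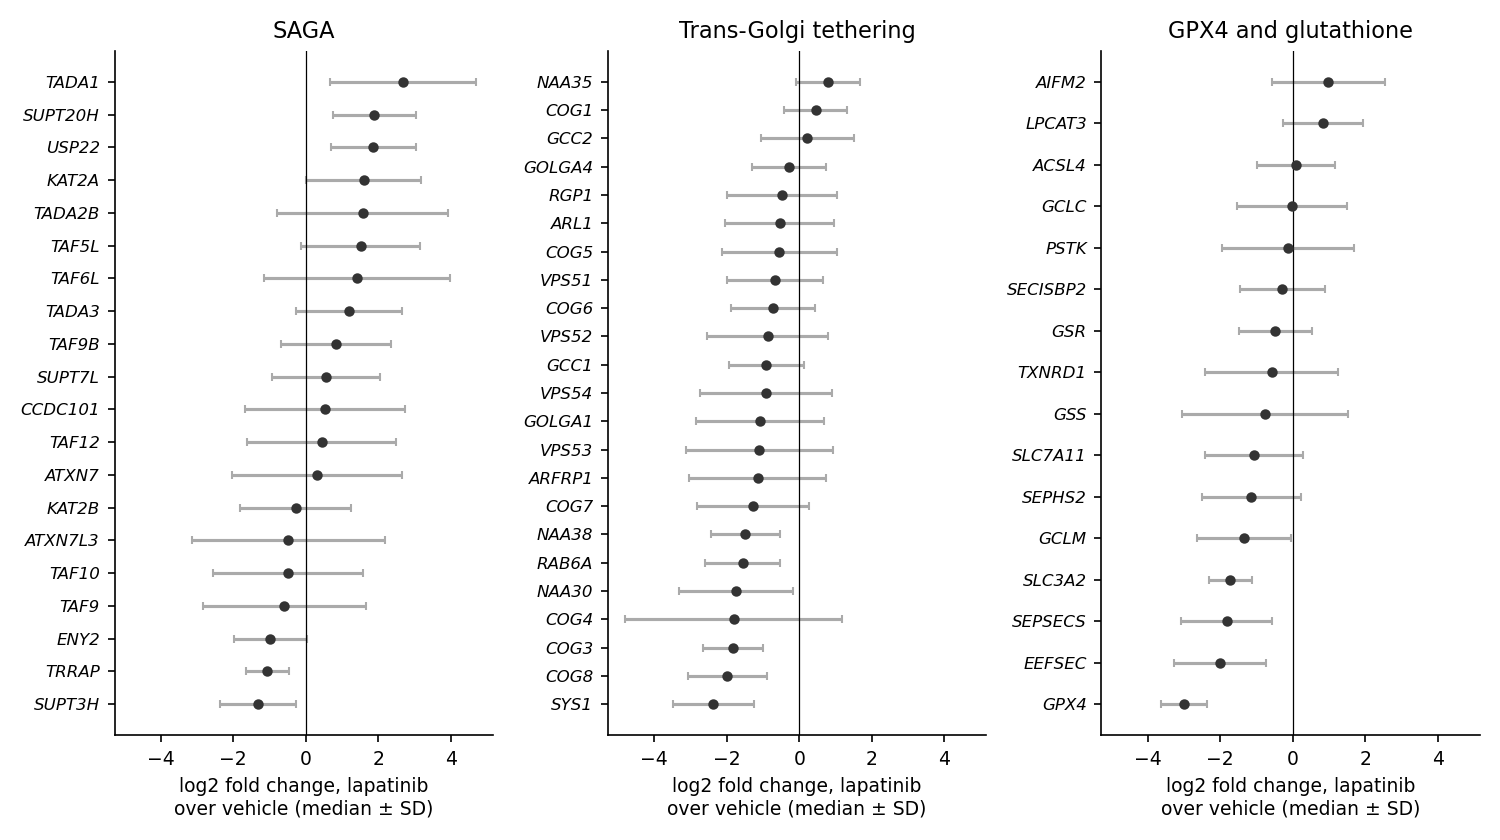
Median log2 fold change of lapatinib over vehicle for each gene of 3 lists (points) with the SD over its sgRNAs (bars). Most SAGA genes lie right of 0 and most trans-Golgi and GPX4 list genes left of it, and many bars cross 0.

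The Ragulator, Rag GTPases and vacuolar ATPase, which sense nutrients at the lysosome and acidify it, had 29.3% of 123 sgRNAs below the range and 6.50% above. ATP6V0C had a median of -2.58 ± 2.88, ATP6V1G1 -2.07 ± 3.53 and ATP6AP1 -1.98 ± 1.10, and no gene of the list passed. In ATP6AP1 the sgRNA with the largest loss had 8.66 and 16.8 normalized counts with lapatinib, against 106 and 81.8 with vehicle. Other lists of genes that most cells need also had larger shares below the range than all sgRNAs. Below it lay 24.8% of aminoacyl-tRNA synthetase sgRNAs, 24.6% of those for RNA polymerase II, 21.3% of those for the proteasome, 20.6% of those for the core spliceosome and 18.1% of those for cytosolic ribosomal proteins. Many of their guides were scarce at the start, with a median baseline count of 97.9 for the proteasome and 106 for ribosomal proteins, against 147 for all. With at least 100 counts at baseline the shares below were 13.9% for the synthetases, 12.8% for RNA polymerase II, 12.3% for the proteasome, 8.08% for the spliceosome, 8.4% for ribosomal proteins and 17.5% for the vacuolar ATPase list, against 5.76% for all. The part of starting abundance in the remaining difference was not tested. In vehicle relative to baseline the medians of gene values of these 6 lists were from -0.52 to -0.27, and that comparison shares the vehicle libraries. The mitochondrial ribosome and respiratory complex I had 9.01% and 8.11% of their sgRNAs below the range, both under the share for all. MRPL23 of the mitochondrial ribosome had -1.91 ± 0.58 with all 6 sgRNAs passing lower, against 30.1% of all, and its adjusted gene p was 0.929.

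The pathway that lapatinib blocks was represented by the EGFR family and its relay to ERK. Of 124 sgRNAs 20.2% lay below the range and 4.84% above, against 11.2% and 4.67% of all, and 14 of 21 genes had a median below 0 in both replicate pairs, against 44.2% of all genes. PTPN11, the phosphatase SHP2 that passes the signal to Ras, had -2.51 ± 1.70, the adaptor GRB2 had -1.77 ± 2.28 and SHOC2, which helps to activate RAF, had -1.09 ± 2.38. In this list 3 genes had a depletion p under 0.05, SHOC2, BRAF and MAP2K1, and 2 an enrichment p under 0.05, GRB2 and SOS1, against 5.18% and 5.09% of all genes, so GRB2 held 1 sgRNA above the control range beside its low median. ERBB2 itself had -0.02 ± 1.41 and EGFR 0.10 ± 0.69, while ERBB3 had 0.94 ± 1.09. ERBB2 sgRNAs summed to 283 and 289 normalized counts with lapatinib, against 292 and 222 with vehicle, so the groups overlap. With at least 100 counts at baseline 14.3% of 77 sgRNAs of the list lay below the range. The brakes on Ras and ERK had a median of gene values of 0.42 (-0.10 with total counts, where all genes had -0.62), with 5.26% of 95 sgRNAs above the range and 5.26% below. RASA2, a Ras GTPase-activating protein, had 1.97 ± 1.36. Its strongest sgRNA had 1592 and 1763 normalized counts with lapatinib, against 151 and 140 with vehicle. Of the 6 sgRNAs of RASA2 5 passed higher, against 31.1% of all. SPRED1, which brings neurofibromin to the membrane, had 1.07 ± 1.84, and NF1, which encodes neurofibromin, had 0.38 ± 1.49. The adjusted p of RASA2 was 0.912.

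PI3K, AKT and mTOR genes had a median of gene values of -0.31, and 15.2% of 99 sgRNAs lay below the range, or 5.97% of the 67 with at least 100 counts at baseline. The sign of that median turned with at least 200 counts over the 4 libraries, where it was 0.40, against -0.05 for all genes. PIK3R2, a regulatory subunit of PI3K, had -1.01 ± 1.19, and PDPK1, which activates AKT, had 1.88 ± 0.91. AKT1 and AKT2 had 0.94 ± 0.82 and 0.77 ± 1.35. The brakes on mTOR had a median of -0.05. Among Src family kinases and their restraint, SRC, YES1 and FYN had medians of 0.20, 0.48 and -0.11, and LYN had 0.34 ± 2.15. CSK stood at 2.56, above a list whose median was 0.20, where all genes had -0.09. The list median was -0.33 with total counts and -0.08 with control-guide scaling, where all genes had -0.62 and -0.37. SH2D3A, an adaptor that binds receptor kinases and p130Cas, was at the other end with -1.98 ± 1.44 and an adjusted p of 0.493. Its sgRNA with the largest loss had 6.19 and 4.80 normalized counts with lapatinib, against 33.98 and 50.9 with vehicle. Of the 6 sgRNAs of SH2D3A 5 passed lower and 1 passed higher, against 30.1% and 31.1% of all.

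In the Hippo pathway the kinases and their activators had medians above 0, apart from STK4, and the coactivators and TEAD factors they restrain had medians below 0. With total counts the median of the list was -0.37, where all genes had -0.62. With the main scaling it was 0.15, where all genes had -0.09. The split of 9 genes above and 7 below was noticed in these data and was not tested. LATS2, a kinase of the pathway, had 1.69 ± 1.68, NF2, which activates it, 1.49 ± 1.12 and SAV1 0.99 ± 1.03. LATS1 had 0.40 ± 1.93, and STK4 had -0.77 ± 1.21. Of the restrained coactivators WWTR1 had -1.62 ± 1.00 with all 6 sgRNAs passing lower, against 30.1% of all, and 2 of them below the control range, and YAP1 had -0.99 ± 1.12 over 5 tested sgRNAs, and their partner TEAD1 had -1.34 ± 1.50. The sgRNA of WWTR1 with the largest loss had 6.19 and 9.61 normalized counts with lapatinib, against 94.2 and 80.9 with vehicle. The LATS2 sgRNA with the largest gain had 1099 and 720 with lapatinib, against 91.1 and 94.3 with vehicle. Adjusted p-values of these genes from rank aggregation of edgeR p-values were between 0.912 and 1, and 9.47% of the 95 sgRNAs of the list lay above the range and 11.6% below.

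Genes of mitochondrial apoptosis also split within the list. BAX, which opens the outer mitochondrial membrane, had 1.46 ± 1.09 with 5 of 6 sgRNAs passing higher, against 31.1% of all. Its strongest sgRNA had 1724 and 1790 normalized counts with lapatinib, against 261 and 333 with vehicle. BAK1, the other protein that can do this, had -1.12 ± 0.55 with 5 of 6 passing lower, against 30.1% of all. Neither BAX nor BAK1 passed the gene test (adjusted p = 1 for BAX and 0.971 for BAK1). Of the list that promotes apoptosis 4.21% of sgRNAs lay above and 4.21% below the range. The opposing list had 13 of 65 below the range and 3.08% above it, with BIRC2 at -1.58 ± 1.14 and TRAF2 at -1.20 ± 1.77, but 6.67% of the 45 with at least 100 counts at baseline. MCL1 and BCL2L1 had 0.87 ± 1.65 and 0.70 ± 0.78.

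KEAP1, CUL3 and the KCTD adaptors had 13.6% of 81 sgRNAs above the range and 9.88% below, and 17.2% above and 0 of 58 below with at least 100 counts at baseline. The scaffold CUL3 had 1.46 ± 0.64 and KEAP1 0.96 ± 1.58, while KCTD2 and KCTD17, relatives of KCTD5, had 0.05 ± 1.67 and 0.76 ± 1.99. Among genes that sort receptors for degradation, STAM2 had 1.98 ± 2.79 and STAM 1.30 ± 0.95, while their partner HGS had -0.85 ± 1.01. In TGF-beta signalling TGFBR3 had 1.70 ± 1.01 and ACVR1B 1.18 ± 0.99, and the receptors TGFBR1 and TGFBR2 had 0.21 ± 1.44 and 0.33 ± 1.15. Among factors of the gastrointestinal lineage other than KLF5, FOXA1 had 1.70 ± 0.45, CDX1 1.47 ± 0.58 and GATA4 1.18 ± 1.37, whereas GRHL2 had -1.35 ± 0.62 and KLF4 -1.21 ± 1.37. The list as a whole had 7.96% above the range and 10.6% below. In the G1 list SKP2, which targets the inhibitor p27 for destruction, had -1.86 ± 1.51 and CCND1 (cyclin D1) -1.04 ± 1.21, while E2F1 had 0.98 ± 1.73. Integrins and focal adhesion genes had 14.0% of 100 sgRNAs below the range, near the 11.2% of all, and 5 of 17 genes with a depletion p under 0.05, VCL, TLN1, ITGB5, ITGA3 and FERMT1, against 5.18% of all genes. Their medians were -0.44 ± 2.00 for VCL (vinculin) and -1.11 ± 2.59 for TLN1 (talin). Heparan sulfate synthesis had 12.5% of 72 sgRNAs below the range, near the share of all, and 4 of 12 genes with a depletion p under 0.05, B3GALT6, EXTL3, B3GAT3 and B4GALT7, against 5.18%, with B3GAT3 at -1.46 ± 1.80. EXTL3 had a median of 0.92 ± 1.84, with 4 sgRNAs that passed higher beside 2 that passed lower, against 31.1% and 30.1% of all. None of the genes in this paragraph passed the gene test in N87.

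Genes next to ERBB2 on chromosome 17q12 had low medians with lapatinib, more so in replicate pair 1, and many of their guides were scarce at the start. Over 17247 windows of 15 neighbouring genes the lowest median of gene values was -1.23, between STARD3 and CSF3 (chromosome 17, 37793343 to 38174066), where 14 of 15 genes had a median below 0. Windows had a median of -0.10 with an SD of 0.25. In the lowest window 27.5% of 80 sgRNAs lay below the control range. Its median was -1.47 in replicate pair 1 and -0.40 in pair 2. PGAP3, beside ERBB2, stood at -2.42 ± 1.58, MIEN1 -1.88 ± 1.97 and GRB7 -1.35 ± 1.27. GRB7 had -3.00 in pair 1 and 0.25 in pair 2. The lowest window off chromosome 17 lay on chromosome 11 from KDM2A to TMEM134, with -1.19. The list of 19 ERBB2 neighbours had a median baseline count of 82.9, against 147 for all sgRNAs. With at least 100 counts at baseline 9.76% of its 41 sgRNAs lay below the range, against 5.76% for all, and with at least 200 counts over the 4 libraries the median of gene values was -0.19, against -0.05 for all genes. Without vehicle replicate 1 it was -0.48 and without lapatinib replicate 1 -0.49. In vehicle relative to baseline the window centred on ERBB2 was the lowest of all, at -0.48, which shares the vehicle libraries with the comparison above.

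**Figure D5:**
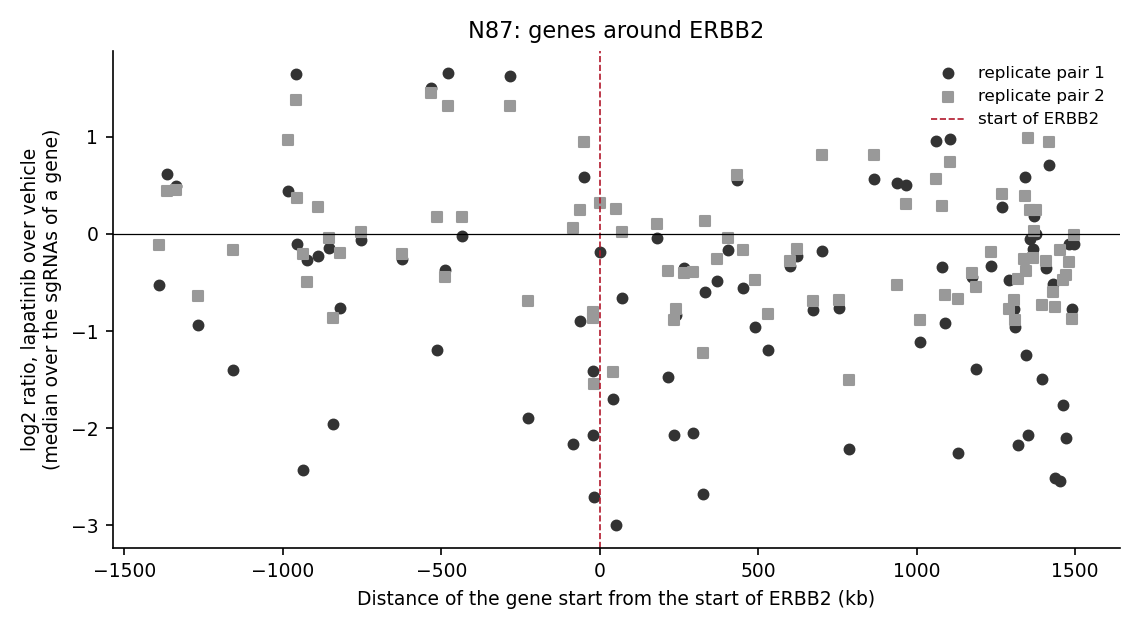
Median log2 ratio of lapatinib to vehicle over the sgRNAs of each gene around ERBB2, in replicate pair 1 (dark circles) and pair 2 (grey squares), by distance from the start of ERBB2. Near ERBB2 most dark circles lie under -1, while grey squares lie closer to 0.

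microRNA hairpins, targeted by up to 4 sgRNAs each, followed the table as a whole, with 5.36% of 7056 sgRNAs above the range and 12.2% below. The 3 of lowest gene p did not pass (adjusted p from 0.431 to 0.509 by rank aggregation of edgeR p-values). hsa-mir-4276 had a median of 2.19 ± 1.23, and its strongest sgRNA had 512 and 396 normalized counts with lapatinib, against 75.7 and 93.4 with vehicle. hsa-mir-6730 had -2.23 ± 2.08, with 21.0 and 46.8 in its lowest sgRNA with lapatinib, against 189 and 209 with vehicle, and 1 sgRNA that passed higher. hsa-mir-22 had -1.72 ± 1.24, with 49.5 and 55.3 in its lowest sgRNA with lapatinib, against 231 and 233 with vehicle. The mature sequences of these hairpins are shown, 5′ to 3′, because the guides cut the hairpin and may change either arm, with the seed (bases 2 to 8) in capitals, from RefSeq on GRCh38.p14. They lie at chr17:1713914-1713935 and chr17:1713952-1713973 (minus strand) for hsa-mir-22, chr4:174423805-174423821 (plus strand) for hsa-mir-4276, and chr1:12578958-12578979 and chr1:12578996-12579018 (minus strand) for hsa-mir-6730.
hsa-miR-22-3p: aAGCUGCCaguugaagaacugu
hsa-miR-22-5p: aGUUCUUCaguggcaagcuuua
hsa-miR-4276: cUCAGUGAcucaugugc
hsa-miR-6730-3p: cCUGACACcccaucugcccuca
hsa-miR-6730-5p: aGAAAGGUggagggguugucaga
No seed is shared between them.

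The extremes of the table were mostly single sgRNAs that were scarce at the start. The highest fold of the mean normalized count (with a pseudocount of 1) was 184, for an sgRNA of POLE2 with 1219 and 1455 with lapatinib, against 10.04 and 2.5 with vehicle and 12.9 and 11.9 at baseline. TRIM7 (160-fold), ADAMTS18 (108-fold) and MAGOHB (86.4-fold) followed, none with more than 25.1 normalized counts at baseline. With a pseudocount of 5 the folds were 119 for POLE2, 92.6 for TRIM7, 66.1 for ADAMTS18 and 61.5 for MAGOHB. An sgRNA of CRHR2 had 71.7 and 109 with lapatinib and no count in either vehicle library, and is given no fold. At the low end an sgRNA of ARMC12 was 55.7-fold lower with lapatinib, with 11.1 and 9.61, against 1220 and 45.1 with vehicle, and its baseline values were 72.3 and 65.6, so the fold comes from vehicle replicate 1. The next were TUBGCP4, AADAC and ITGA3, all without a count in either lapatinib library, and FAM133B, with 2.47 and 0. The ITGA3 sgRNA had 35.5 and 37.5 with vehicle. Folds to a count of 0 depend on the pseudocount and are not given.

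The effect of lapatinib was set against that in OE19, which had another dose, by the interaction of line and treatment. The gene test found 4 genes (0.0191% of 20889) with a lower log2 fold change in N87 and 0 with a higher one. KEAP1, the adaptor that holds NRF2 low, had a median of 0.96 ± 1.58 in N87 and 5.78 in OE19, with an adjusted p of 5.91e-05 for the difference by rank aggregation of edgeR p-values. SMAD3, a transcription factor activated by TGF-beta receptors, had -0.54 ± 0.48 in N87 and 2.24 in OE19 with 0.0354. SH2D3A and SYS1, with -1.98 and -2.37 in N87, had 0.42 and -0.03 in OE19, each with 0.0354. CSK had 2.56 in N87 and 10.80 in OE19, and BAX had 1.46 and 3.90, without passing this test (adjusted p = 1 and 0.734). The median interaction of CSK over its sgRNAs was -7.88. CSK did not pass the gene test within OE19 either, so its not passing is not read as a lack of difference. KLF5 had 2.41 in N87 and 0.01 in OE19 and did not pass either (adjusted p = 0.922).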

How the data were processed

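The authors sequenced sgRNAs amplified from genomic DNA, trimmed the reads, checked them with FastQC (0.11.5), aligned them to the guide library by Bowtie with fewer than 2 mismatches (Bowtie2 2.3.2 in the processing notes of the submitters) and deposited the raw counts per sgRNA of all 12 libraries. MAGeCK (0.5.6) was used by the authors and not here. Guide sequences were not used here. Counts as deposited were tested in edgeR 4.0.16 (R 4.3.3; quasi-likelihood test by glmQLFit and glmQLFTest after TMM scaling, without the replicate as a block, two-sided), for sgRNAs with at least 40 counts over the 4 libraries. One-sided p-values were combined by robust rank aggregation over ranks below 0.05, with the exact distribution for uniform ranks, for genes with at least 2 sgRNAs, in Python 3.11.15. Differences from OE19 used the interaction over 8 libraries and at least 80 counts. Genes were placed with GENCODE 44 on GRCh37. The scripts were tested on simulated data.

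The members and the 42 gene lists were chosen with earlier results of these data known. Named genes are the 10 of lowest p in each direction with the same sign in both replicate pairs, genes the paper names for the screen, up to 3 of lowest p per list and the 5 sgRNAs of largest and smallest fold, and other list members were named after their values were seen. Not every gene or list is reported here. Samples were grouped by their titles. Pairing was checked by whether samples of one number deviate together, and the log2 difference of replicate 1 to replicate 2 with lapatinib had r = 0.0606 with that in vehicle over 123411 sgRNAs, so the replicate block was an alternative. Alternatives were DESeq2 1.42.0, total counts, TMM factors from control guides, no filter or at least 200 counts, each library left out, baseline in place of vehicle, other rank rules and pseudocounts of 0.5 and 5. The split by baseline abundance was chosen after seeing the data. In the table, 24 gene names are dates and were kept. Replicate libraries were not duplicates of each other, since their chi-square over its degrees of freedom was 7.5 for lapatinib and 4.99 for vehicle.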

Additional observations from a re-analysis of the deposited data

Results flagged for a closer look

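The effect of lapatinib differed between N87 and OE19 for 4 genes by the interaction test. In each the log2 fold change was lower in N87, as a smaller gain or as a loss. The adjusted p from rank aggregation of edgeR p-values was 5.91e-05 for KEAP1 and 0.0354 for each of SH2D3A, SMAD3 and SYS1. KEAP1 and SMAD3 had medians of 0.96 and -0.54 in N87, beside 5.78 and 2.24 in OE19. SYS1 and SH2D3A had -2.37 and -1.98 in N87, beside -0.03 and 0.42 in OE19. N87 received 0.5 µM and OE19 received 1 µM, so line and dose cannot be told apart. This test was not repeated with a library left out. Groups of 2 libraries are too small to look for a library far from the others.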

How the results depend on the processing

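With the main settings 38054 sgRNAs passed higher and 36396 lower, controls included, so 51.1% were higher. With total counts only, 23130 passed higher and 54785 lower (29.7% higher), and with scaling on control guides 39.4% were higher. These scalings moved the median log2 fold change of all sgRNAs to -0.59 and -0.34, from -0.07. As each library was left out, 29619 to 40657 passed higher, 19114 to 43987 lower and 671 to 1194 control entries passed, lowest without a vehicle library. The number of enriched genes was 2 with DESeq2 (KCTD5, TADA1), 2 when sgRNAs were ranked by log2 fold change (CSK, TADA1) and 0 to 3 as each library was left out. The number of depleted genes was 28 with baseline in place of vehicle, among them SYS1 and GPX4 but not RAI14, and 0 to 5 as each library was left out. A group with a library left out keeps a single one, whose spread is taken from the other group. With the replicate block, 38707 sgRNAs passed higher and 35498 lower, 0 genes were enriched and 2 depleted (RAI14, SYS1), and GPX4 had an adjusted p of 0.131. Ranked by log2 fold change, ATP6V1G1 and TNS3 were the depleted genes. The fold of the POLE2 sgRNA was 197 with a pseudocount of 0.5 and 119 with 5. sgRNAs under 50 counts at baseline had the widest spread, and the part of depth in it was not tested.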
